A study of Homo sapiens with 6 samples.

Results

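The non-targeting control guides of a pooled CRISPR screen in HS-SY-II cells were described as the measure of how far guide abundance moves when no gene is cut. They were found by name, as the guides whose target field starts with NonTargeting. Of the 3653 guides counted, 3470 target a gene, and the others, 5.01%, are the non-targeting guides, numbered without a gap from 3482 to 3664. The cells of every group were of HS-SY-II, a line from a human synovial sarcoma, made to express Cas9, transduced with the same guide library by lentivirus and selected with puromycin. The 6 libraries were 2 of cells frozen at day 0, 2 of cells kept for 14 days in culture, called here the cultures, and 2 of tumours grown under the skin of athymic nude mice, called here the tumours or in vivo. Nude mice lack T cells but keep other immune cells, 1 cell line stands for the disease, and guide counts hold no marker by which the identity of the cells could be checked. By the methods 4 mice were used per replicate. The labels number the tumours replicates 1 and 2, whereas the study's own heat map of the libraries names both as mice of replicate 1, so that it is not settled whether they came from 1 transduction or from 2.

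A non-targeting guide is designed to match no site in the genome, so Cas9 is not led to a cut and the cell that carries it grows like an unedited cell. Each transduced cell passes its guide on to all of its descendants, and a guide therefore stands for a set of clones. When few clones of a guide survive transplantation, or when some clones happen to grow faster than others, the abundance of that guide moves without any effect of the guide itself. This movement is called drift. Guides that cut a gene drift in the same way, which is why a screen reads its targeting guides against the non-targeting ones.

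Sequencing depth was 3394352 to 21854232 counts per library. The non-targeting guides, 5.01% of the guides, held 5.46% and 5.89% of all counts at day 0, 8.01% and 8.03% for the cultures, and 7.42% and 6.92% for the tumours. The share was thus higher in each culture and each tumour than in either day 0 library, and higher in each culture than in each tumour. With 2 libraries a group the exact two-sided permutation test cannot go below p = 0.333, which is the value each of these pairs of groups gave. No non-targeting guide was at 0 in any library, and 1 guide in 1 library had fewer than 100 counts. The median guide had 1290 to 5919 counts, at which counting alone gives an SD of 0.019 to 0.040 on the log2 scale. PCR copies are not independent molecules, so that this figure covers counting error only. The guide below 100 counts was sgRNA_3525 in tumour 1.

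The spread of the non-targeting guides within a library was similar at day 0 and after culture and wider in the tumours. The SD of log2 CPM (counts scaled to the same total in each library, with 1 added) over the non-targeting guides was 0.90 and 0.78 at day 0, 0.80 and 0.81 for the cultures, and 1.19 and 1.37 for the tumours. Both tumours lay above all 4 other libraries, while the day 0 and culture values overlapped (exact permutation p = 0.333 for either against the tumours and 1.00 between them). The guide at the 90th percentile was 4.47 and 3.21 times as abundant as the guide at the 10th at day 0, 3.74 and 4.37 times after culture, and 7.34 and 11.0 times in the tumours. The Gini coefficient, which is 0 when every guide is equally abundant, was 0.312 and 0.272 at day 0, 0.285 and 0.294 for the cultures, and 0.407 and 0.476 for the tumours. By each of these measures the second tumour was the less even of the pair. By the median absolute deviation of log2 CPM, which gives less weight to extreme guides, the tumours were nearly alike, at 1.148 and 1.151.

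A few guides took a large part of the non-targeting counts in the tumours. The 10 most abundant guides held 15.1% and 14.2% of these counts at day 0, 14.8% and 14.8% for the cultures, and 18.1% and 24.9% for the tumours, where an even share would be 5.46%. The most abundant was 46.9 and 51.6 times as abundant as the least abundant at day 0, 65.7 and 44.8 times in the cultures, and 129.0 and 275.4 times in the tumours. Guides more than 4-fold away from the non-targeting median of their library made up 3.83% and 3.28% at day 0, 2.19% and 1.64% for the cultures, and 9.84% and 15.3% for the tumours. The wide tails of the tumours were on both sides of the median, with 8 guides above and 10 below in replicate 1 and 10 above and 18 below in replicate 2. Of the first set guides, the targeting guides numbered below 1496 in the library, 4.68% and 2.88% lay as far from their own median at day 0, 5.35% and 5.69% for the cultures, and 16.4% and 19.5% for the tumours.

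The guides at the top of the tumours differed from each other and from those of the cultures. sgRNA_3524 was the most abundant non-targeting guide of tumour 2, at 3713 CPM, which was 5.37% of the non-targeting counts there. It had 252.1 CPM in tumour 1, 325.2 and 242.3 in the cultures, and 242.0 and 164.3 at day 0. Only 1 of the 6 libraries was therefore high for it. sgRNA_3625 was the most abundant of tumour 1, at 1505 CPM, and had 778.5 in tumour 2, 739.8 and 736.4 in the cultures, and 321.6 and 523.3 at day 0. sgRNA_3642 led day 0 replicate 1 and both cultures, at 1421, 2227 and 2342 CPM, and had 1244 CPM in day 0 replicate 2 and 1318 and 963.3 in the tumours. sgRNA_3482 led day 0 replicate 2, at 1266 CPM, and had 1134 in day 0 replicate 1, 1487 and 1304 for the cultures, and 1322 and 1736 for the tumours. These last 2 guides were among the 18 most abundant, or 9.84% of the non-targeting guides, in all 6 libraries, and no other guide was.

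At the low end no guide was among the 18 least abundant in all 6 libraries. sgRNA_3612 was the lowest of both day 0 libraries, at 30.3 and 24.5 CPM, and ranked 36 and 105 from the top in the tumours. sgRNA_3598 was the lowest of both cultures, at 33.9 and 52.3 CPM. It had 38.9 and 34.9 CPM at day 0, but 163.5 in tumour 1 against 18.6 in tumour 2. sgRNA_3525 was the lowest of tumour 1, at 11.7 CPM from 52 counts, with 62.5 CPM in tumour 2, 195.3 and 110.1 in the cultures, and 100.1 and 70.6 at day 0.

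Replicates were compared by the log2 CPM of replicate 1 minus that of replicate 2 for each non-targeting guide. The SD of this difference over the non-targeting guides was 0.62 at day 0, 0.53 in the cultures and 1.36 in the tumours. Read counting accounts for an SD of 0.049, 0.060 and 0.063, or 0.625%, 1.25% and 0.217% of the variance. The differences between replicates were therefore far wider than counting error at every step, day 0 included, and widest between the tumours. There is 1 pair of libraries a group, so that no test of this ordering over libraries was possible. Deeper sequencing of the same DNA would narrow the counting part alone.

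The typical non-targeting guide differed 1.30-fold between the day 0 libraries, 1.24-fold between the cultures and 1.87-fold between the tumours (median absolute difference, after the median of the pair was set to 0). More than 2-fold differences were found for 21 guides at day 0, 12 in the cultures and 84 in the tumours, and more than 4-fold differences for 1, 0 and 21. The 1 at day 0, named after its values were seen, was sgRNA_3572, with 51.3 and 250.8 CPM there, 259.3 and 168.5 for the cultures, and 76.5 and 149.9 for the tumours. The 84 guides of the tumours are 45.9% of the non-targeting guides, beside 44.6% of the 1492 first set guides that passed the filter on day 0 counts. For more than 4-fold differences between the tumours the shares were 11.5% and 16.3%. In the second set, which holds the other targeting guides, they were 55.2% and 27.4% for the 2 limits. A difference of this size between the tumours was thus common among guides that cut no gene.

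The guides with the largest differences between tumours were sgRNA_3483, sgRNA_3505 and sgRNA_3524. sgRNA_3483 had 37.0 CPM in tumour 1 and 753.2 in tumour 2, which is a difference of 23.0-fold once each tumour is set relative to its own non-targeting median, whereas it had 421.9 and 398.3 in the cultures and 288.9 and 270.7 at day 0. sgRNA_3505 was high in tumour 1 and low in tumour 2, at 609.1 and 26.6 CPM, with 257.2 and 513.8 in the cultures and 296.8 and 180.0 at day 0. For both guides the tumours lay on either side of all 4 other libraries. The largest difference between the cultures was that of sgRNA_3629, at 481.1 and 132.5 CPM, or 3.62-fold relative to the non-targeting median of each culture. It had 294.8 and 274.0 CPM at day 0, and 1344 and 195.6 in the tumours. sgRNA_3502, at 159.4 and 407.9 CPM, and sgRNA_3545, at 331.7 and 132.8 CPM, came next among the cultures.

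Correlation between replicates followed the same order. Across the non-targeting guides, log2 CPM had a Pearson r of 0.734 (Spearman 0.709) at day 0, 0.78 (0.729) in the cultures and 0.443 (0.448) in the tumours. Of the 18 most abundant guides of each library, 10 were shared by the day 0 libraries, 11 by the cultures and 6 by the tumours, and of the 18 least abundant 6, 9 and 5. A tumour shared 7 to 10 of its 18 most abundant guides with each day 0 or culture library, and so more than with the other tumour. These are correlations and overlaps across guides of 1 library pool, and carry no p.

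The variance between replicates can be given as the number of cells per guide at which random sampling of cells alone would give the same variance. This number is 1 over the variance of the natural log of abundance in 1 library, after the counting part has been taken off. It was 10.7 cells per guide at day 0, 14.8 in the cultures and 2.26 in the tumours. The inverse of the negative binomial dispersion that edgeR fitted to each pair of libraries, a like quantity on the scale of counts, was 11.1, 15.4 and 2.72. By the methods 2000000 cells were transplanted, read here as the number per mouse. The aliquot frozen at day 0 held 5000000, and at least as many were kept in culture. These numbers are 547.5 and 1369 cells for each guide of the library. The numbers from the variance restate it and do not count cells. For first set guides the numbers were 6.63, 9.28 and 1.86.

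The replicate difference was wider in the classes of rarer guides. The guides were divided into 3 classes of 61 by mean log2 CPM over all 6 libraries. The differences come from the same libraries. A guide that fell in 1 library was thereby drawn towards the rarest class, so part of the order may be built in. From the rarest to the most abundant class, the SD of the replicate difference was 0.75, 0.55 and 0.50 at day 0, 0.59, 0.53 and 0.47 for the cultures, and 1.56, 1.32 and 1.18 for the tumours. The same variance given as cells per guide was 1.72, 2.40 and 3.01 in the tumours and 12.1, 14.7 and 18.7 in the cultures. The order was the same in all 3 groups, and in each class the tumours differed most.

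Much of the abundance pattern was common to all libraries. The covariance of log2 CPM between day 0 and culture libraries was 0.47 to 0.50 (4 pairs), that between a tumour and any day 0 or culture library 0.46 to 0.61 (8 pairs), and that between the tumours 0.72. The covariance between the day 0 libraries was 0.52 and between the cultures 0.50. Covariance with a day 0 or culture library was thus about as large for a tumour as among those libraries, or larger, and it was largest between the tumours. The variance within each tumour was larger too, at 1.41 and 1.87 against 0.61 to 0.82 in the other libraries. The r between a tumour and a day 0 or culture library was therefore 0.468 to 0.558, and that between the tumours 0.443. Among the day 0 and culture libraries r was 0.644 to 0.78.

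Changes against day 0 were taken from 1 fit of all guides with edgeR. Guides averaging fewer than 30 counts at day 0 were left out, which kept 3607 guides and every non-targeting one. Between day 14 and day 0, the quasi-likelihood test of edgeR, adjusted by the Benjamini-Hochberg method, called 0 non-targeting guides at an adjusted p under 0.05, as it did for all guides (0% of those tested in either direction). On counts simulated with 1 dispersion for every library, 0.303, it recovered 5% of 4-fold and 82% of 16-fold changes for this comparison. Between the real pairs the dispersion of the non-targeting guides was 0.0898 at day 0, 0.0651 in the cultures and 0.368 in the tumours. The shares recovered therefore need not hold for the real libraries, and the absence of calls does not show that guides stayed level. At an unadjusted p under 0.05, 1 non-targeting guide, sgRNA_3615, was lower and 8 were higher, which is 0.546% and 4.37% of them, beside 7.18% lower and 1.22% higher of all guides tested. At an adjusted p under 0.05, edgeR without tumour 1 called 1 lower (0.546%) and 4 higher (2.19%), beside 6.99% and 0.61% of all guides. Without tumour 2 it called 1 lower (0.546%) and 4 higher (2.19%), beside 7.4% and 0.665% of all guides. With day 0 and the cultures fitted alone it called 1 lower and 4 higher, beside 8.12% and 0.804% of all guides. A lone tumour has no replicate to differ from, so these fits took the spread from the day 0 and culture libraries. The main fit, with 0 calls, also took in the spread between the tumours. DESeq2 called none lower and 1 higher, sgRNA_3612, or 0.546%, beside 3.47% and 0.0832% of all guides.

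The non-targeting guides as a group stood above the bulk of the library in both arms. Their median log2 fold change exceeded the median of all guides tested by 0.49 in the cultures and 0.55 in the tumours. Of the non-targeting guides, 166 had a log2 fold change above 0 in the cultures and 142 in the tumours, or 90.7% and 77.6%, against 50.5% and 50.5% of all guides tested. The shares were 80.7% and 71.0% for the first set and 23.3% and 32.2% for the second set. The first set exceeded the same median by 0.39 and 0.50, and the second set lay below it by -0.58 and -0.63. How far the non-targeting median itself was from 0 depended on the scaling, at 0.50 and 0.57 with TMM and at -0.01 and -0.27 when libraries were scaled to the total of these guides, whereas the distance to the other guides was 0.49 to 0.57 in the cultures and 0.49 to 0.72 in the tumours in every setting tried.

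In vivo the non-targeting guides were more widely spread than in the cultures. The SD of the log2 fold change over the non-targeting guides was 0.47 in the cultures and 0.88 in the tumours. The middle 95% of the guides ran from -0.28 to 1.31 in the cultures, a span of 3.0-fold, and from -0.71 to 2.39 in the tumours, a span of 8.56-fold. The first set spanned 8.29-fold and 32.8-fold. Against day 0 the tumours had 0 non-targeting guides called lower and 1 called higher by edgeR's quasi-likelihood test at an adjusted p under 0.05, where 1.14% of all guides tested were lower and 0.554% higher. For this comparison the test recovered 22% of 4-fold and 94% of 16-fold changes on simulated counts. The simulation again used the single dispersion of 0.303, below the 0.368 of the non-targeting guides between the tumours, so these shares need not hold in vivo. Before adjustment, at p under 0.05, 1 non-targeting guide, again sgRNA_3615, was lower and 43 were higher, or 0.546% and 23.5%, beside 12.8% and 12.9% of all guides. Of the first set, 3.75% were lower and 20.4% higher at this limit. These counts depended on the scaling. With scaling to the non-targeting total, 11 non-targeting guides were lower and 8 higher, beside 1064 and 115 of all 3607 guides tested. With library totals alone the counts were 5 and 16, beside 776 and 198. With either scaling the non-targeting share was below that of all guides among lower guides, and above it among higher ones. DESeq2 called 1 non-targeting guide lower and 32 higher, or 0.546% and 17.5%, beside 10.3% and 10.9% of all guides. Without tumour 1 edgeR called 7 lower and 46 higher, or 3.83% and 25.1%, beside 16.5% and 15.6% of all guides. Without tumour 2 it called 6 and 49, or 3.28% and 26.8%, beside 17.3% and 14.6%. In these 2 fits the spread between the tumours is no longer seen. With a replicate block, or without any single day 0 or culture library, edgeR called 0 of all guides in vivo, the non-targeting ones included.

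The guide that passed the test in vivo was sgRNA_3612 (NonTargeting_Human_0579). It had 662 and 111 counts at day 0, 317 and 887 for the cultures, and 2688 and 1884 for the tumours. On the CPM scale these are 30.3 and 24.5, 93.4 and 218.9, and 603.0 and 220.8. The guide was the rarest non-targeting guide of both day 0 libraries, and every later library was higher, the lowest of them 3.08 times the higher day 0 value. Its log2 fold change was 4.41 in the tumours (edgeR's quasi-likelihood test, adjusted p = 0.0426) and 2.52 in the cultures (adjusted p = 0.318). In vivo the adjusted p was 2.29e-08 by DESeq2 and 0.0286 by limma on the authors' normalized values. By edgeR it was 0.0334 with scaling to the total of the non-targeting guides and 0.109 with the 2 groups compared alone. With a replicate block in edgeR it was 0.0921, and it was 0.188 with both tumours in the block of replicate 1. Without day 0 replicate 1 or 2 it was 0.427 and 0.289, and without culture replicate 1 or 2 it was 0.12 and 0.122. Without tumour 1 or 2 it was 0.00132 and 2.45e-05.

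The guide with the lowest fold change in both arms was sgRNA_3615 (NonTargeting_Human_0583). It had 6720 and 1941 counts at day 0, 295 and 353 for the cultures, and 295 and 115 for the tumours, which are 307.5 and 429.3, 86.9 and 87.1, and 66.2 and 13.5 CPM. Both day 0 libraries were above all 4 others. Against the non-targeting median of its library the log2 level was 0.18 and 0.59 at day 0, -2.15 and -2.15 for the cultures, and -2.20 and -4.20 for the tumours. Its log2 fold change did not pass edgeR's quasi-likelihood test in either arm, at -2.07 in the cultures (adjusted p = 0.514) and -2.72 in the tumours (adjusted p = 0.103). By DESeq2 the adjusted p was 0.192 and 0.0105, and by edgeR with the 2 groups compared alone the values were 0.00756 and 0.217. Scaled to the total of the non-targeting guides it was 0.197 and 0.0383, and by limma on the authors' normalized values 0.176 and 0.0421. Without tumour 1 or 2 it was 0.0151 and 0.0126 for the cultures and 0.000477 and 0.0189 for the tumours.

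The other guides at the ends of the fold change range in the cultures were sgRNA_3512, sgRNA_3636, sgRNA_3606 and sgRNA_3534 at 1.71, 1.33, 1.33 and 1.32, and sgRNA_3600, sgRNA_3521, sgRNA_3656 and sgRNA_3520 at -1.02, -0.38, -0.36 and -0.28. On both sides the guides next to the extreme one lay nearer to the bulk. sgRNA_3512 had 33.2 and 102.2 CPM at day 0, 289.0 and 148.1 for the cultures, and 80.8 and 42.4 for the tumours, so that both cultures lay above the other 4 libraries. sgRNA_3600 had 315.2 and 268.3 CPM at day 0, 144.7 and 139.9 for the cultures, and 241.2 and 84.5 for the tumours. None of these 8 guides passed edgeR's quasi-likelihood test in the cultures.

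In the tumours the other guides at the high end were sgRNA_3524, sgRNA_3624, sgRNA_3487 and sgRNA_3511 at 3.83, 2.52, 2.49 and 2.43, and those at the low end sgRNA_3633, sgRNA_3527, sgRNA_3652 and sgRNA_3616 at -0.97, -0.90, -0.84 and -0.76. The first of these was set by 1 tumour, as given above. sgRNA_3624 likewise had 295.7 CPM in tumour 1 and 1843 in tumour 2, with 243.9 and 201.6 in the cultures and 341.2 and 201.7 at day 0. sgRNA_3511 was high in both tumours, at 643.2 and 663.4 CPM, against 384.2 and 219.6 in the cultures and 230.4 and 114.6 at day 0 (adjusted p = 0.0604 by edgeR's quasi-likelihood test). sgRNA_3487 had 1291 and 389.5 CPM in the tumours, 241.6 and 548.6 in the cultures, and 135.5 and 286.9 at day 0, where the second tumour lay between the cultures.

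Between the tumours and the cultures edgeR's quasi-likelihood test called 0 non-targeting guides in either direction after adjustment at 0.05, where of all guides tested 0% were lower and 0.0277% higher. Before adjustment, at the same limit, 4 non-targeting guides (2.19%) were lower and 14 (7.65%) higher, beside 5.54% and 8.54% of all guides. The 4, named after their values were seen, were sgRNA_3506, sgRNA_3527, sgRNA_3644 and sgRNA_3652. DESeq2 called 0 and 3 non-targeting guides (1.64% higher), beside 2.11% and 3.91% of all guides. Without tumour 1 edgeR called 15 lower and 17 higher, or 8.20% and 9.29%, beside 9.48% and 11.9% of all guides. Without tumour 2 it called 8 and 21, or 4.37% and 11.5%, beside 8.73% and 10% of all guides. The non-targeting share exceeded that of all guides only for the higher guides without tumour 2.

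Whether the same guides moved in both replicates was described without any shared library, by the change of replicate 1 from day 0 replicate 1 and the change of replicate 2 from day 0 replicate 2. Over the non-targeting guides these changes had a Pearson r of 0.207 (Spearman 0.157) in the cultures and 0.122 (0.0821) in the tumours. With the day 0 libraries exchanged, r was 0.0967 and 0.177. For the tumours the pairing is by label only, as it is not settled from which transduction each came. In the tumours 57 guides in replicate 1 and 69 in replicate 2 were more than 2-fold from day 0 relative to the non-targeting median. Of these, 9 were up in both, 2 were down in both and 9 went opposite ways. In the cultures 22 and 9 guides were as far from day 0, of which 1 was up in both, 2 were down in both and 1 went opposite ways. The same counts were not made for targeting guides, so these have no background to be read against. More than 4-fold changes in the same direction in both tumours were those of sgRNA_3612 and sgRNA_3615, and in both cultures that of sgRNA_3615. Without these guides, which were picked for moving alike in both replicates and so had to raise it, r was 0.022 in the tumours and 0.122 in the cultures. The second set had an r of 0.632 in the cultures and 0.46 in the tumours, and the first set 0.399 and 0.352, computed in the same way.

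The level of a guide at day 0 bore little relation to its later change when the level and the change were taken from different day 0 libraries. Over the 8 ways of choosing the library, the reference and the level, Pearson r across guides was between -0.0916 and 0.0891. The guides that were rare at day 0 were thus not, in general, those that gained.

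The deposited normalized table is tied to these guides. Each of its columns is the count column times 1 constant, and for all 6 libraries the constant equals the reciprocal of the median, over the non-targeting guides, of the count divided by the exponential of the mean log count (1 added) of that guide over the libraries, within 1e-06 of its value. The constants were 0.32 and 1.45 at day 0, 1.45 and 1.17 for the cultures, and 1.41 and 0.865 for the tumours. Computed in the same way from all guides, the factors would be 0.243 and 1.13, 1.59 and 1.34, and 1.76 and 0.965. In the normalized table the median non-targeting guide therefore stood at 1857 to 1962 in all 6 libraries, while the median over all guides was 1746 and 1630 at day 0, 1144 and 1084 for the cultures, and 1019 and 1118 for the tumours. With these factors edgeR called 133 of all guides lower (3.69%) and 15 higher (0.416%) in vivo, against 41 and 20 with TMM, and 0 and 1 of the non-targeting guides. This setting was added after the data had been seen.

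The range of the non-targeting guides places the targeting ones. In the cultures 64.3% of the 1932 second set guides lay below the 2.5th percentile of the non-targeting guides, and in the tumours 47.3% did. Below the single lowest non-targeting guide, which was sgRNA_3615 in both arms, the shares were 11.4% and 13.4%. First set guides lay below that percentile in 10.5% and 11.1% of cases and above the 97.5th percentile in 2.61% and 3.69%. Of 23 second set guides against CDC45, PRPF19, RPL13, RPS27A and SRSF2, genes of DNA replication, splicing and the ribosome that dividing cells need, 23 lay below the percentile in the cultures and 22 in the tumours, and 21 and 19 lay below sgRNA_3615. These genes were chosen with earlier results of these data known, so their place is a description and no test of the range. Above the highest non-targeting guide, sgRNA_3612, lay 0.0554% of all guides tested in the cultures and 0.139% in the tumours.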

How the data were processed

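The authors deposited whole-number counts of reads per guide, from paired-end reads mapped to the custom guide library with MAGeCK. The submitters' processing notes name MAGeCK and hg38, with no version given in the sources used here. Their second table holds normalized signal values, deposited as counts times 1 constant per library. Columns were matched to samples by name, and none was left out. Counts of guides with a mean of at least 30 over the day 0 libraries were scaled by TMM and tested with edgeR 4.0.16 (glmQLFit, glmQLFTest, all 6 libraries, no block) in R 4.3.3, adjusted by Benjamini-Hochberg over 3607 guides. Alternatives were other scalings and filters, the 2 groups alone, a replicate block, each library left out, DESeq2 1.42.0, and limma 3.58.1 on the authors' normalized values. Log2 CPM had 1 added. Spreads, correlations and exact permutation tests used Python 3.11.15, numpy 2.4.6, pandas 2.3.3 and scipy 1.17.1.

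Scripts were tested on simulated data. Named guides were those called, the 5 highest and 5 lowest by fold change in each arm, the most and least abundant of each library, and the 3 with the largest difference between tumours and between cultures. The members and lists were chosen with earlier results of these data known. First set guides are those numbered up to 1495. The methods call the screens duplicates, and nothing says that the 2 libraries of a group are more than that. The p-values therefore measure the spread between these libraries. By the methods both arms of a replicate began with the same transduced cells, so replicate numbers pair day 0 with day 14. Deviations of the non-targeting guides from their group means correlated at 0.113 between day 0 and day 14, -0.0731 between day 0 and in vivo and -0.0318 between day 14 and in vivo. Depth was 929.2 to 5983 counts per guide on average.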

Additional observations from a re-analysis of the deposited data

Results flagged for a closer look

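For 5 of the non-targeting guides named above, both cultures lay on one side of the day 0 mean and both tumours on the other (log2 CPM with TMM scaling). The tumour mean minus the culture mean was 2.24 for sgRNA_3624, 1.30 for sgRNA_3656, -1.38 for sgRNA_3527, -1.42 for sgRNA_3633 and -1.48 for sgRNA_3652. The direct test of tumours against cultures by edgeR's quasi-likelihood test passed for none of them (adjusted p = 0.257, 0.305, 0.323, 0.376 and 0.345). Relative to the non-targeting median of each library, 2 of the 5, sgRNA_3624 and sgRNA_3656, still had both arms on opposite sides of day 0, and the other 3 did not.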

How the results depend on the processing

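The main limit is 2 libraries a group, with 1 pair of tumours. Alternatives that reuse the same counts were thinning all libraries to 3394352 counts and adding 0.1 or 10 CPM in place of 1. Others were keeping guides with at least 100 counts in every library and using the authors' normalized values. With these the SD of the replicate difference was 0.59 to 0.63 at day 0, 0.52 to 0.54 in the cultures and 1.28 to 1.37 in the tumours. The replicate correlation was 0.731 to 0.735, 0.778 to 0.780 and 0.433 to 0.447. The spread was 1.13 to 1.20 in tumour 1 and 1.29 to 1.38 in tumour 2. The median absolute deviation, which gives less weight to extreme guides, was lower than the SD. For the replicate difference it was 0.56 at day 0, 0.47 in the cultures and 1.34 in the tumours. For the spread it was 0.77 and 0.60 at day 0, 0.64 and 0.68 in the cultures, and 1.148 and 1.151 in tumours 1 and 2. Of the counts of non-targeting guides called, those in the cultures were 1 lower and 4 higher with the 2 groups compared alone and 1 higher by DESeq2. In vivo they were 1 lower with scaling to the non-targeting total, by DESeq2 and by limma, and 32 higher by DESeq2, 0 higher with the 2 groups alone, 0 with a replicate block and 0 with both tumours in block 1, a setting added after seeing the data. Of all guides in vivo, 8.95% were lower with scaling to the non-targeting total, 10.3% by DESeq2 and 7.21% by limma, and 10.9% were higher by DESeq2. Between tumours and cultures DESeq2 called 3 higher, beside 3.91% of all guides. Leaving out each library in turn gave 0 to 1 lower and 0 to 4 higher in the cultures, 0 to 7 and 0 to 49 in vivo, and 0 to 15 and 0 to 21 between the arms. All of these calls came without a tumour, and without any other library 0 of all guides were called. Of all guides the same fits called at most 7.40% lower and 0.665% higher in the cultures, 17.3% and 15.6% in vivo, and 9.48% and 11.9% between the arms, and the fit of the 2 groups alone 8.12% and 0.804% in the cultures. The median log2 fold change of the non-targeting guides was -0.0053 in the cultures with scaling to their total, 0.0204 by limma and -0.0004 with median-ratio factors over them, which the scaling sets near 0 by construction. In vivo it was 0.67 with median-ratio factors over all guides and by DESeq2, 0.67 with the 2 groups alone, -0.27 with scaling to the non-targeting total, 0.0541 with library totals alone, -0.0227 by limma and 0.0754 with median-ratio factors over the non-targeting guides. Between tumours and cultures it was -0.22 with scaling to the non-targeting total and -0.37 with library totals. Leaving out each library gave 0.51 to 0.59, 0.37 to 0.68 and -0.12 to 0.20. The replicate block left the median at 0.51 in the cultures and 0.52 in vivo and ended every call in the fit, the 41 lower and 20 higher of all guides in vivo and the 1 between the arms, with that of sgRNA_3612 among them.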
